A study of Mus musculus with 36 samples.

Results

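The comparison described here is that of hepatocytes given an adenoviral vector for human GKRP-446P (hP) with untreated hepatocytes, both at the endogenous level of glucokinase (GK). Its members were taken by title and treatment label: 3 hP cultures and 6 untreated cultures, 9 of the 36 cultures of the series. Primary hepatocytes came from 3 female mice aged 14 weeks. Mouse 1 and mouse 2 carry the genotype label Gckr-446L and mouse 3 the label Gckr-446P/L, whereas the study's methods give knock-in mice of the 446L line for all 3 and treat their hepatocytes as deficient in GKRP, without endogenous GK held in the nucleus. Each mouse gave 1 hP culture and 2 untreated cultures, so the 2 groups can be paired by hepatocyte preparation. All cultures received 10 nM dexamethasone and 10 nM insulin, and after 24 h at 5 mM glucose they were incubated for 4 h at 25 mM glucose before RNA was extracted. The labels give 5 to 50 pfu per cell for the GKRP vectors as a range, whereas the study states a single titre for these cultures. The untreated cultures received no vector, so an effect of GKRP and an effect of the adenovirus cannot be told apart in this comparison. The nearest vector control is the culture with the GK vector alone, and hP was also set against that.

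GK phosphorylates glucose in the hepatocyte, and GKRP binds it and holds it in the nucleus at low glucose. Glucose metabolites made downstream of GK activate ChREBP, a transcription factor that drives genes of glycolysis, lipogenesis and glucose export, among them Txnip, Pklr and Rgs16. Adult hepatocytes rest outside the cell cycle. On entry into the cycle, cyclin D and cyclin E kinases inactivate the retinoblastoma proteins and release E2F factors, which switch on the genes for origin licensing, the replication fork, nucleotide supply and chromatin assembly. A later programme, driven by other factors, covers mitosis.

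Libraries of the 9 cultures held 3924674 to 7678682 reads. Levels are given as CPM, the counts of a gene scaled to a common library size after TMM normalization and not corrected for gene length, with the 2 untreated cultures of a mouse summed. Human GCKR is not in the mouse transcript set, so the vector transcript was not measured. Mouse Gckr (chromosome 5 of GRCm39, 31454787 to 31484658) was 41.9, 119 and 62.1 CPM in hP cultures of mice 1, 2 and 3, and 39.2, 61.3 and 70.7 CPM in the untreated cultures, which overlap. As a check of the labelled cell type, 9 hepatocyte markers summed to 64994 to 100880 TPM with hP and 59906 to 109162 TPM in untreated cultures. Macrophage markers (12 genes) summed to 256 to 443 TPM against 182 to 736, endothelial markers (6 genes) to 24.2 to 42.1 against 7.26 to 32.9 and stellate markers (7 genes) to 12.4 to 31.8 against 7.06 to 97.7 TPM. TPM depend on the estimated transcript lengths, which varied between cultures. No marker of these lists was at 0 in all 9 cultures. In bulk cultures fewer cells of a type and less RNA per cell cannot be told apart.

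Hepatocytes given the hP vector carried more RNA for genes of the transition from G1 to S phase than untreated hepatocytes of the same mice. The checkpoint kinase Chek1 was 10.7 times higher, the methylation adaptor Uhrf1 6.78, the cyclins Ccne2 and Ccne1 6.77 and 6.70 and the helicase subunits Mcm5 and Mcm4 5.76 and 5.32 times higher, each in 3 of 3 mice. Genes of mitosis were mostly too low to test, and a smaller set of glucose-responsive genes, led by Rgs16, Txnip and Slc2a2, fell. Of 12177 genes tested with edgeR, 238 were raised (1.95% of genes tested; adjusted p under 0.05 and a fold of at least 1.3) and 61 were lowered (0.501%; fold of at most 0.7). The median log2 fold change was 0.87 for the raised genes and -0.72 for the lowered genes. All 3 hP cultures lay above all 6 untreated cultures for 174 of the 238 raised genes, whereas 3.15% of all genes tested were placed in this way. The same held in the other direction for 28 of the 61 lowered genes, with 1.74% of all genes. A model without pairing by mouse called 86 raised and 9 lowered genes. Leaving out mouse 1, 2 or 3 left 139, 127 and 56 raised and 40, 29 and 8 lowered genes. With an offset for the estimated transcript lengths 16 and 0 genes were called. These are effective lengths that Salmon estimated for each culture. Their median over genes was 521 to 2129 bases in the 6 untreated cultures and 1333 to 1696 bases in the 3 hP cultures. Without untreated cultures 2 and 3, the shortest by this measure, 238 and 61 genes were called, an alternative chosen after seeing the data. Why the offset lowered the number of calls was not tested.

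**Figure D1:**
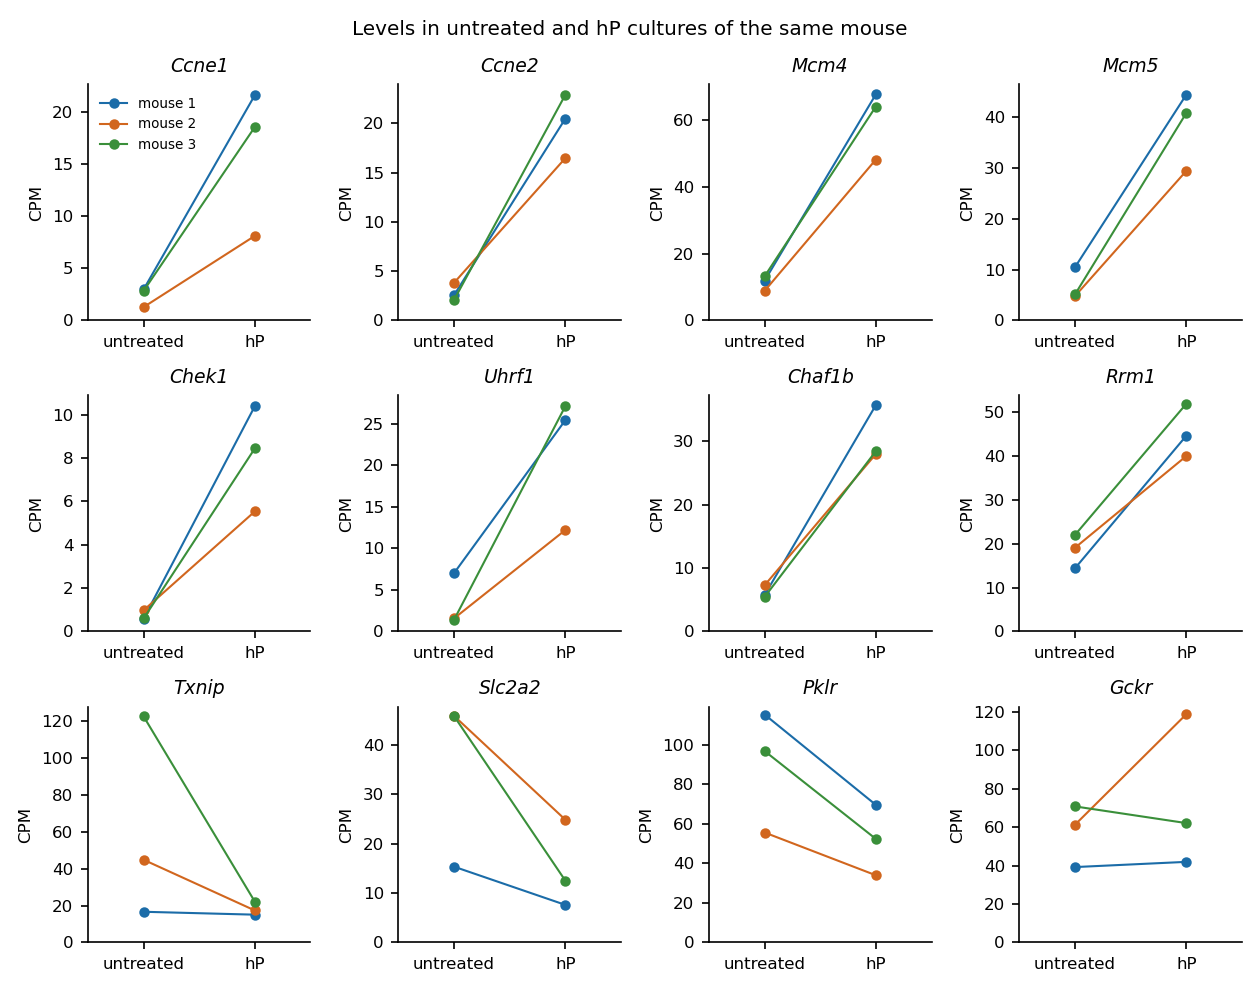
Levels of 12 genes in CPM (linear axes that start at 0) in untreated and hP cultures, with a line for each mouse and the 2 untreated cultures of a mouse combined. The 8 genes of the upper 2 rows rise in all 3 mice, Slc2a2 and Pklr fall in all 3, Txnip falls from 123 to 22.1 CPM in mouse 3 and from 16.6 to 15.1 CPM in mouse 1, and Gckr rises only in mouse 2 by more than a few CPM.

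The gene lists used below hold 178 genes of 6 replication groups, of which 159 passed the filter on low counts. Of these, 69 were raised and 1 was lowered, with a median log2 fold change of 0.58 over all 159, against 0.00 over all genes tested. By mouse the median of the same 159 log2 ratios was 0.55, 0.50 and 0.61. Thus 69 of the 238 raised genes were in these lists and 169 were not. The lists were written with earlier results of these data known, so these counts describe the list and do not test it. With mouse 3 left out 29 members were raised, and with the transcript length offset 7.

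**Figure D2:**
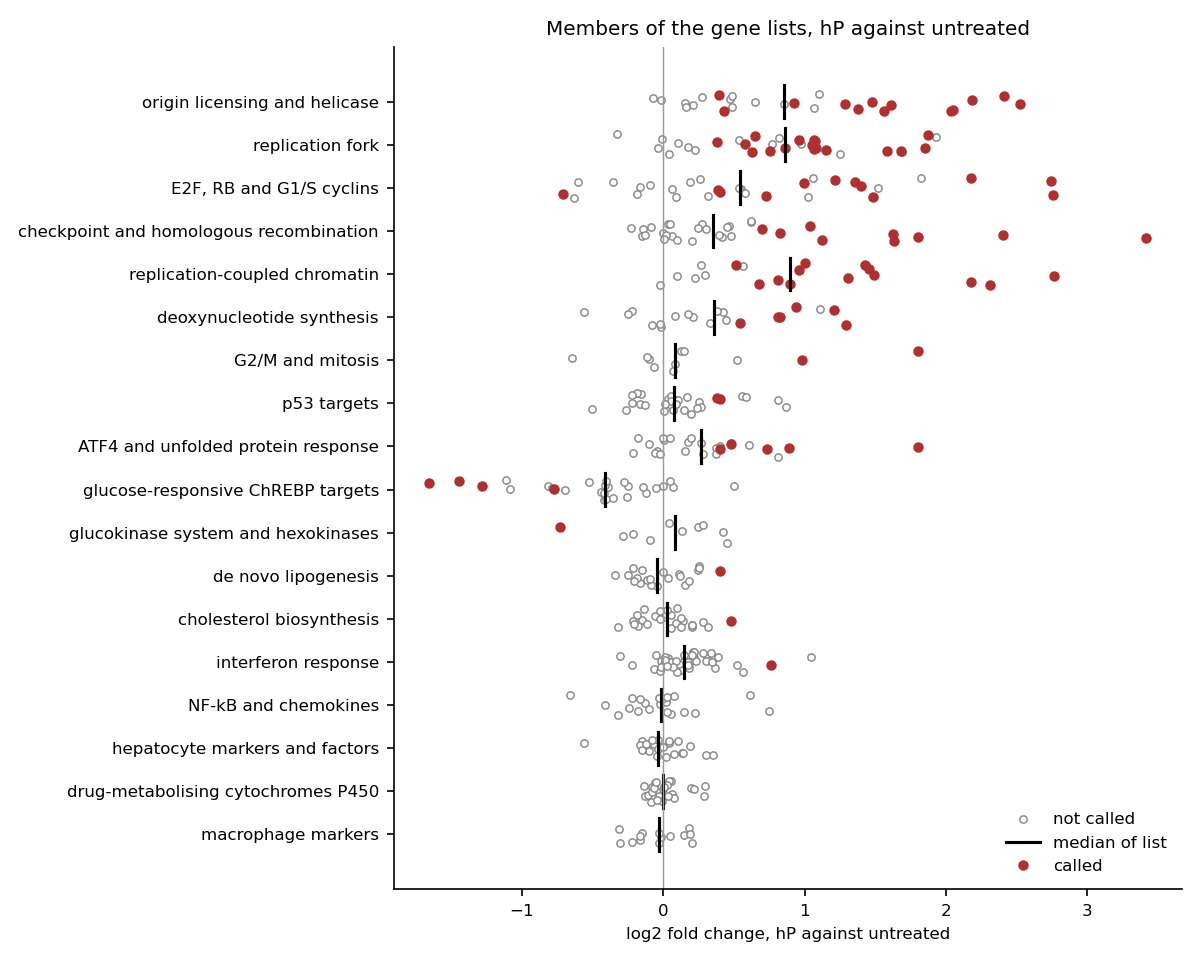
Log2 fold change of hP against untreated for each tested member of 18 gene lists, with filled points for genes called and a bar at the median of each list. The 6 replication lists lie to the right of 0, the ChREBP targets to the left, and the lists of hepatocyte, cytochrome P450 and macrophage genes around 0.

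Among the cyclins and E2F factors 11 of 30 tested members were raised and 1 was lowered, with a median log2 fold change of 0.54. Ccne1 (chromosome 7, 37797404 to 37808264) and Ccne2 (chromosome 4, 11190303 to 11204947) encode the E cyclins that activate Cdk2 at the start of S phase. Ccne1 was 21.6, 8.10 and 18.5 CPM with hP and 2.97, 1.27 and 2.83 CPM in untreated cultures of mice 1, 2 and 3. Ccne2 was 20.5, 16.5 and 22.9 CPM with hP and 2.57, 3.82 and 2.09 CPM without. Neither gene overlapped between the groups, with mouse 2 lowest of the hP cultures in each. The log2 fold change was 2.74 ± 0.23 (SE) for Ccne1 and 2.76 ± 0.30 for Ccne2, with adjusted p of 7.99e-08 and 3.96e-06. Cdk2 itself rose by 1.22 ± 0.08 on the log2 scale and Cdc25a, the phosphatase that activates it, by 1.00 ± 0.19. E2f1, an activating E2F factor, rose by 1.36 ± 0.21 and E2f8, a repressing factor that limits the same genes later in S phase, by 2.18 ± 0.36. E2f8 was 16.0, 6.25 and 11.4 CPM with hP against 3.27, 2.85 and 0.894 CPM. The pocket protein Rbl1 rose by 1.401 and the kinase inhibitors Cdkn2c (1.48), Cdkn1b (0.73) and Cdkn1a (0.40) rose also. Cdk6, a partner of the D cyclins, was the member that fell, by 0.71 ± 0.19, from 109, 68.0 and 100.1 CPM to 48.3, 53.5 and 68.9 CPM. Ccnd1 (log2 fold change -0.16, adjusted p = 0.847), E2f3 (0.06) and E2f4 (-0.10) did not pass the test.

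Origin licensing loads the ring of Mcm2 to Mcm7 on DNA through the origin recognition complex and Cdt1, and Cdc45 and the GINS proteins then turn it into the active helicase. Of 27 tested genes of this group 13 were raised and no gene was lowered (0 at an unadjusted p under 0.05, and 0 by DESeq2), with a median log2 fold change of 0.86. All 6 MCM genes were raised. Mcm5 was 44.4, 29.4 and 40.8 CPM with hP against 10.5, 4.80 and 5.14 CPM (2.53 ± 0.17, adjusted p = 2.2e-09). Mcm4 was 67.7, 48.1 and 64.0 CPM against 11.9, 8.85 and 13.2 CPM (2.41 ± 0.12, adjusted p = 2.22e-11). Mcm3 was 75.1, 60.1 and 79.6 CPM against 17.4, 15.9 and 18.1 CPM (2.05 ± 0.09, adjusted p = 7.2e-12, the smallest of all genes tested). For these 3 genes every hP culture stood above every untreated culture. Mcm2 (2.04), Mcm6 (1.48) and Mcm7 (0.93) rose less. Of the other members, Orc1 was 1.86, 1.28 and 2.27 CPM against 0.495, 0.225 and 0.447 CPM (2.18 ± 0.37), Cdt1 rose by 1.56 ± 0.25 and Gins2 by 1.61 ± 0.25. Cdc6, which loads the ring with Cdt1, had a log2 fold change of 0.47 (adjusted p = 0.75), and Orc2 and Orc4, subunits of the origin complex that resting cells keep, had 0.21 and -0.07.

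The level of all 6 MCM genes can be summed as a measure of the whole complex. This sum was 520, 425 and 500 CPM with hP and 142, 167 and 145 CPM in untreated cultures of mice 1, 2 and 3. It was 3.66, 2.54 and 3.45 times the untreated value of the same mouse, so mouse 2 had both the highest untreated and the lowest hP value. With the GK vector alone the sum was 158, 193 and 191 CPM, and with hP and GK together 514, 433 and 514 CPM. No sample labelled without a GKRP vector exceeded 193 CPM and no sample labelled with one was below 405 CPM. The GK alone sample of mouse 3 includes a culture with 1462 CPM of mouse Gckr, beside 51.8 to 98.0 CPM in the other GK alone cultures.

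**Figure D3:**
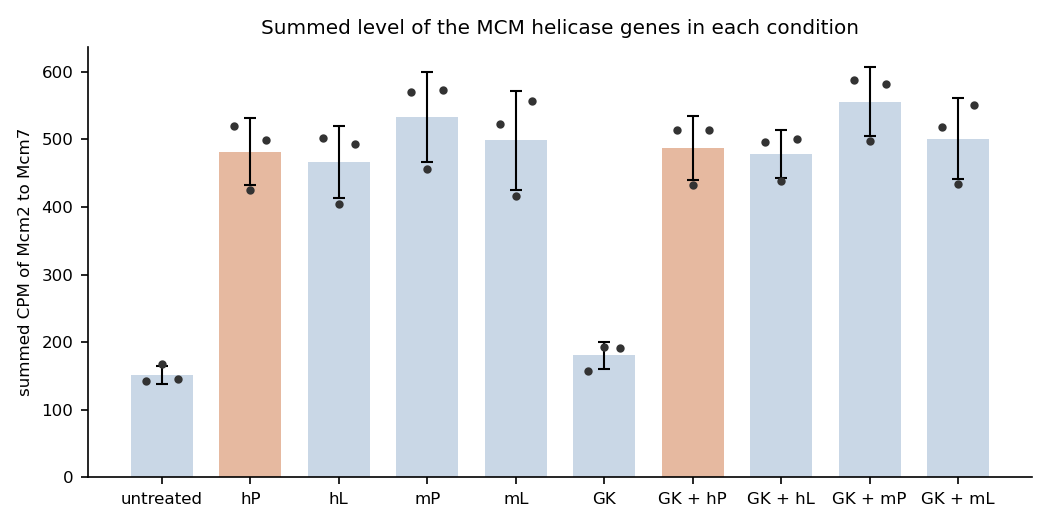
Summed CPM of Mcm2 to Mcm7 in each of the 10 conditions, with bars for the mean, error bars for the SD of 3 mice and a point for each mouse (mouse 1 to 3 from left to right). The 2 conditions labelled without a GKRP vector (untreated and GK) lie between 142 and 193 CPM and the 8 with a GKRP vector between 405 and 587 CPM.

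E2F factors bind short GC-rich sites in the promoters of many such genes. The promoter windows of all tested genes (250 bases before to 30 bases after the start of the canonical transcript, GRCm39, Gencode) were searched on both strands for TTTGGCGC, TTTGCCGC, TTTCGCGC and TTTCCCGC. At least 1 match was found in 3.39% of 12176 windows, in 36 of 238 windows of raised genes (15.1%) and in 3 of 61 windows of lowered genes (4.92%). In the replication lists 15 of the 69 raised members held a match (21.7%) and 12 of the 90 other tested members (13.3%). Windows with a match, from genes with large rises among the leading genes and the replication lists, follow, with the match in capitals, to let the position of the site be read beside the rise of the gene. The windows are those of Paqr4 (chr17:23959367-23959646, minus strand), Mcm5 (chr8:75835890-75836169, plus strand), Mcm4 (chr16:15455235-15455514, minus strand), Orc1 (chr4:108436370-108436649, plus strand) and Mcm3 (chr1:20890507-20890786, minus strand), each written 5′ to 3′ on the strand of the gene.
Paqr4: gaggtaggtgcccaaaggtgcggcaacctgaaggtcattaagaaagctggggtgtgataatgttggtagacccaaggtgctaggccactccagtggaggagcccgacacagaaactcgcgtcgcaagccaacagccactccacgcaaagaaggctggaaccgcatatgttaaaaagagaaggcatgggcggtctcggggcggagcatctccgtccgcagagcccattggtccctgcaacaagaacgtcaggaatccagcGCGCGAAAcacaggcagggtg
Mcm5: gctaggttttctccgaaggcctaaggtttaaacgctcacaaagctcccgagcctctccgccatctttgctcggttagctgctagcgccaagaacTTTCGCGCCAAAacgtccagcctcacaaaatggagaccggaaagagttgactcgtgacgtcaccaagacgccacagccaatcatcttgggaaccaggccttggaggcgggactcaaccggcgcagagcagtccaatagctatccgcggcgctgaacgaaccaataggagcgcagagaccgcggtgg
Mcm4: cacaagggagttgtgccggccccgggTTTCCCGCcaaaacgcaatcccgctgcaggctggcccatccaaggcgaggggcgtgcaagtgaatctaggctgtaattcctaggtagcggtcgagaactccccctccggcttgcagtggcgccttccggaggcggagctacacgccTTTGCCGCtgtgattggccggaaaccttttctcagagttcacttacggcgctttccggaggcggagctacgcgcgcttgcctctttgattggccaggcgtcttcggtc
Orc1: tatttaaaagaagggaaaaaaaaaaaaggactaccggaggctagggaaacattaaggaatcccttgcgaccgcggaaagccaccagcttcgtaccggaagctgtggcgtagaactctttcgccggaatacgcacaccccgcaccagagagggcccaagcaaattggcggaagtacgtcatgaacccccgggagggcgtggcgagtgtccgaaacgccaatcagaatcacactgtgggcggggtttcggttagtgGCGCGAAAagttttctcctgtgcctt
Mcm3: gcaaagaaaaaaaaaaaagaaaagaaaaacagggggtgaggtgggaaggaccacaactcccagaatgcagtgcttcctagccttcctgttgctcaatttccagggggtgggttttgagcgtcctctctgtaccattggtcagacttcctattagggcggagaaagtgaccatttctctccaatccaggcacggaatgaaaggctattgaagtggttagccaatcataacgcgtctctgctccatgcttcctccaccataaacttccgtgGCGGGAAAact
The Mcm5 window has 2 overlapping matches, TTTCGCGC from 156 and GCGCCAAA from 152 bases before the start, and the Mcm4 window has matches 224 and 78 bases before it. In Paqr4, Orc1 and Mcm3 the match lies within the 30 bases after the start, at positions 10, 5 and 20. The promoters of Chek1, Ccne1, Ccne2, Uhrf1 and Chaf1b hold no match to these letters in this window. A match is a string of letters and not a measured binding site.

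Of the replication fork genes 17 of 31 were raised and no gene was lowered (0 at an unadjusted p under 0.05, and 0 by DESeq2), with a median log2 fold change of 0.86. Lig1, the ligase that joins Okazaki fragments, was 56.3, 32.8 and 50.0 CPM against 15.5, 13.0 and 13.4 CPM (1.68 ± 0.12). Wdhd1, which couples the helicase to polymerase alpha, was 13.2, 12.2 and 18.5 CPM against 3.36, 3.45 and 5.29 CPM (1.85 ± 0.16). Timeless, a fork protection protein, rose by 1.87 ± 0.29 and Ung, which removes uracil from DNA, by 1.58 ± 0.27. The sliding clamp Pcna, abundant in these cells, was 146, 135 and 151 CPM against 64.0, 83.8 and 71.7 CPM (0.96 ± 0.14). Prim1, the primase, had 13.97, 11.2 and 14.8 CPM against 1.88, 4.50 and 4.32 CPM without overlap, yet did not pass the test (1.93 ± 0.57, adjusted p = 0.0758).

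Chek1, the kinase of the replication checkpoint (chromosome 9, 36614487 to 36638361), had the largest log2 fold change of all raised genes. It was 10.4, 5.54 and 8.45 CPM with hP and 0.594, 0.975 and 0.596 CPM in untreated cultures, where single cultures did not exceed 1.60 CPM. The log2 fold change was 3.42 ± 0.34, a fold of 10.7 (adjusted p = 1.24e-06). In the checkpoint and homologous recombination list 9 of 32 members were raised and no gene was lowered (0 at an unadjusted p under 0.05, and 0 by DESeq2), with a median log2 fold change of 0.35. Brca2, a mediator of homologous recombination, was 9.47, 10.4 and 10.9 CPM against 2.47, 3.00 and 3.35 CPM (1.80 ± 0.24). Rad51c, at 1.71, 0.710 and 0.812 CPM against 0.198, 0.075 and 0.298 CPM, rests on few reads (2.40 ± 0.64, adjusted p = 0.0423). The mismatch repair gene Msh6 (1.13) and Topbp1 (0.83), an activator of the checkpoint, were raised, whereas the apical kinases Atr (-0.08) and Atm (0.03) did not pass the test. The rise in this list was thus carried by a subset of its members.

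Replication-coupled chromatin genes had the highest share raised of the 6 lists, 13 of 19, with no gene lowered (0 at an unadjusted p under 0.05, and 0 by DESeq2) and a median log2 fold change of 0.89. Uhrf1, which directs maintenance methylation to new DNA, was 25.4, 12.2 and 27.1 CPM with hP. In untreated cultures it was 7.03, 1.57 and 1.42 CPM, with mouse 1 above the others (2.76 ± 0.32, adjusted p = 8.23e-06). Chaf1b, a subunit of the chaperone that places histones behind the fork, was 35.7, 28.0 and 28.4 CPM against 5.74, 7.27 and 5.44 CPM (2.31 ± 0.19). Tcf19, a chromatin-bound factor of S phase, was 9.93, 6.96 and 14.9 CPM against 2.47, 2.10 and 2.09 CPM (2.17 ± 0.23). The histone methyltransferase Ezh2 (1.49 ± 0.16), the remodeller Hells (1.31) and the methyltransferase Dnmt1 (0.89) rose also. Of 32 replication-dependent histone genes only 3 passed the filter on low counts. None of the others exceeded 8 reads in any of the 9 cultures, so their response could not be tested. The 3 tested genes were lower (median log2 fold change -0.24), 1 of them at an unadjusted p under 0.05, and none was called.

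Deoxynucleotide supply rose in part, with 6 of 20 members raised, no gene lowered (0 at an unadjusted p under 0.05, and 0 by DESeq2) and a median log2 fold change of 0.36. Rrm1, the large subunit of ribonucleotide reductase, was 44.7, 40.0 and 52.0 CPM against 14.4, 19.1 and 22.1 CPM (1.29 ± 0.13). Dut, which keeps uracil out of the nucleotide pool, rose by 1.21 ± 0.14 and Tyms, which makes thymidylate, by 0.94 ± 0.16. The partner subunit Rrm2, at 17.8, 152 and 54.3 CPM with hP and 16.0, 154 and 68.0 CPM without, differed more between mice than between groups (-0.08 ± 0.20, adjusted p = 0.937). Tk1, the thymidine kinase of S phase, had a log2 fold change of 0.44 (adjusted p = 0.6).

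Genes of G2 and mitosis were mostly too low to test, with 11 of 35 tested. Cdk1, the mitotic kinase, was 2.79, 1.28 and 2.44 CPM with hP against 0.693, 0.525 and 0.522 CPM (1.80 ± 0.47, adjusted p = 0.034) and Ccnf, a cyclin of the ubiquitin ligase that limits S phase factors, had 5.90, 2.13 and 6.34 CPM against 1.78, 2.25 and 2.61 CPM (0.98 ± 0.27, adjusted p = 0.0457). Ccnf was thus higher in 2 of 3 mice with overlapping groups, had log2 fold changes between 0.67 and 1.46 in fits on 2 mice, and lost its call under 11 of 16 alternatives. The median of the 11 was 0.08, and Mki67, the common marker of cycling cells, was 2.64, 0.568 and 0.812 CPM against 3.76, 0.675 and 0.447 CPM (adjusted p = 0.987). None of the 24 untested members exceeded 11 reads in a culture of either group. Of 30 p53 target genes 2 were raised, Cdkn1a (271, 276 and 296 CPM against 186, 237 and 214 CPM; 0.40 ± 0.09) and Mdm2 (104, 115 and 117 CPM against 77.3, 88.1 and 93.5 CPM; 0.38 ± 0.08), each close to the fold of 1.3 that a call needs. DESeq2 called 1 raised. At an unadjusted p under 0.05, 3 members were higher and 3 lower, and Btg2, an inhibitor of proliferation chosen here after its value was seen, had -0.50 ± 0.13 (adjusted p = 0.0405) with a fold of 0.706, just short of a call. The median of the list was 0.08.

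Among leading genes outside the replication lists, Paqr4, a membrane protein of the progestin and adipoQ receptor family, was 6.21, 2.41 and 4.87 CPM with hP against 0.594, 0.450 and 0.224 CPM (3.31 ± 0.45, adjusted p = 7.65e-05). Dppa3, a germline factor that binds Uhrf1, rose in each mouse from its own level, from 3.17, 0.075 and 0.447 CPM to 20.8, 1.85 and 4.55 CPM (3.15 ± 0.41). Its groups overlap, with mouse 1 highest in each. Fignl1, a factor of homologous recombination, rose by 2.13 ± 0.23 and Slfn9, a Schlafen family gene, by 2.10 ± 0.19 (36.6, 15.9 and 27.6 CPM against 8.81, 2.77 and 7.90 CPM). Gm4739 (2.20) and Gm5828 (1.83) are processed pseudogenes, whose reads can come from a parent gene. In all, 156 raised genes were in no list. Several of these, picked after their values were seen, act in S phase too: Dtl (1.96), a substrate adaptor for the destruction of Cdt1, Dnajc9 (1.88), a histone chaperone, Wee1 (1.61), the kinase that restrains Cdk1 and Cdk2, Zfp367 (1.56) and Usp1 (0.92), the deubiquitinase of Pcna. Wee1 was 29.3, 30.5 and 27.6 CPM with hP against 9.40, 10.5 and 8.79 CPM in untreated cultures.

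A stress response list, of ATF4 targets and the unfolded protein response, held 5 raised genes of 25 and no lowered gene (1 lower at an unadjusted p under 0.05, and 0 by DESeq2), with a median log2 fold change of 0.27. Chac1, which degrades glutathione, was 12.6, 6.39 and 15.3 CPM with hP against 3.76, 2.92 and 2.46 CPM (1.80 ± 0.35, adjusted p = 0.00371). Mthfd2, a mitochondrial folate enzyme, rose by 0.89 ± 0.19, Ddit3, the stress factor CHOP, by 0.73 ± 0.18, Herpud1 by 0.48 ± 0.11 and Atf4 by 0.40 ± 0.10. The chaperones Hspa5 (-0.18) and Hsp90b1 (-0.06) and the splicing-regulated factor Xbp1 (0.00) did not pass the test.

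Of 28 tested ChREBP targets and partners 4 were lowered and no gene was raised (1 higher at an unadjusted p under 0.05, and 0 by DESeq2). Of the 28 genes 25 had a log2 fold change below 0 and the median was -0.41, or -0.24, -0.38 and -0.56 in mice 1, 2 and 3. Several members were picked by the study on these same libraries, so the list is not independent evidence of its direction. Rgs16, a regulator of G protein signalling, was 2.95, 3.83 and 1.62 CPM with hP and 3.46, 9.75 and 12.4 CPM without (-1.65 ± 0.42, adjusted p = 0.0296). Txnip (chromosome 3, 96465267 to 96469201), which limits glucose uptake, was 15.1, 17.3 and 22.1 CPM with hP. In untreated cultures Txnip was 16.6, 44.8 and 123 CPM, so the groups overlap and the difference grew with the untreated level of the mouse (-1.44 ± 0.30, adjusted p = 0.00745). Slc2a2, the glucose transporter GLUT2, was 7.60, 24.9 and 12.5 CPM against 15.3, 45.9 and 45.8 CPM (-1.28 ± 0.28). Pklr, the liver pyruvate kinase, fell by a like amount in each mouse, from 115, 55.6 and 96.7 CPM to 69.5, 33.9 and 52.3 CPM (-0.77 ± 0.15, adjusted p = 0.00327). Without mouse 3, the mouse labelled Gckr-446P/L, the log2 fold change was -0.90 for Rgs16, -0.76 for Txnip, -0.96 for Slc2a2 and -0.74 for Pklr, and none of the 4 passed. None passed without mouse 2 either, nor in a model without the mouse. Mlxipl, which encodes ChREBP, had a log2 fold change of 0.50 (adjusted p = 0.089), and Thrsp (0.07) and Khk (0.00) did not pass.

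Of the enzymes around GK, Pfkfb3, which makes the activator of phosphofructokinase, was lowered, from 67.3, 91.8 and 85.6 CPM to 33.4, 70.6 and 47.4 CPM (-0.73 ± 0.16). The other 9 of the 10 genes, Gckr and hexokinases among them, did not pass. Of the other lowered genes, Pik3r1, the regulatory subunit of PI3 kinase, was 35.7, 23.4 and 24.0 CPM against 64.8, 39.7 and 49.9 CPM (-0.88 ± 0.15). Deptor, an inhibitor of mTOR, fell by 1.05 ± 0.27, Trp53inp2, an autophagy factor, by 1.11 ± 0.16 and Clcn5, a chloride and proton exchanger of endosomes, by 1.09 ± 0.16. Tpm2, a tropomyosin, was 30.1, 45.0 and 56.0 CPM against 78.9, 89.8 and 89.8 CPM (-1.05 ± 0.18), and the actin-binding Shroom1 fell by 1.02 ± 0.18. Trim7, a ubiquitin ligase, was lower in each mouse (22.8, 18.3 and 16.7 CPM against 41.6, 36.1 and 38.4 CPM; -1.005 ± 0.13), with all 3 hP cultures below all 6 untreated cultures. Uhmk1 (-0.91), Zbtb4 (-0.90), Zfp688 (-1.14) and the long noncoding RNA Gm16170 (-2.03) complete the leading genes that fell. Gm16170 overlaps Trim7 on chromosome 11, so reads of these genes may not be told apart. Zfp688 lost its call under 11 of 16 alternatives and turned sign under 1 more. For hP with GK against GK alone Zfp688 had 0.16 and was not called. The processed pseudogene Ftl2-ps was 364, 138 and 42.9 CPM in untreated samples and 0, 0 and 0.162 CPM with hP, but in each mouse nearly all of its reads came from a single untreated culture (929 CPM in culture 2 and 0.323 CPM in culture 1 of mouse 1), so its call is uncertain.

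In lists of hepatocyte function few genes were called, beside 1.95% raised and 0.501% lowered of all genes tested. Small changes can be missed, as 21 of 67 genes changed by 1.5-fold were detected in simulated data, so few calls do not show a lack of change. Of 24 hepatocyte markers and factors, 24 cytochromes P450 and 27 genes of fatty acid oxidation none was raised or lowered by edgeR, with 2, 0 and 3 genes at an unadjusted p under 0.05 and 0, 0 and 1 called by DESeq2. Alb, the main secreted protein, was 66272, 105951 and 85656 CPM with hP against 67699, 102363 and 94918 CPM (-0.05 ± 0.09), and Hnf4a, a master factor of the hepatocyte, had a log2 fold change of -0.04 ± 0.10. Of 27 cholesterol biosynthesis genes Insig1, which retains the SREBP complex, was raised (126, 201 and 167 CPM against 84.4, 148 and 124 CPM; 0.48 ± 0.10). Among 21 lipogenic genes Dgat2, which makes triglyceride, rose by 0.40 ± 0.11. Among 20 genes of cholesterol efflux and bile acids Gpr146, a receptor linked to blood cholesterol, rose by 0.55 ± 0.15 (adjusted p = 0.0468). Insig1, Dgat2 and Gpr146 had overlapping groups and lost their calls under 6, 9 and 14 of 16 alternatives.

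A response to the virus was looked for in the interferon and NF-kB lists. Of 47 interferon response genes Tap1, a peptide transporter, was raised (50.1, 29.97 and 47.8 CPM against 33.5, 19.8 and 22.3 CPM; 0.76 ± 0.19). The median of the list was 0.15, with 40 of 47 members higher. At an unadjusted p under 0.05, 6 members were higher and 1 lower, and DESeq2 called 2 raised. Against the same untreated cultures the median was -0.01 with hL, 0.01 with mP, -0.12 with mL and -0.17 with GK. For hP with GK against GK alone it was 0.15. The chemokine Cxcl10 was 10.7, 12.9 and 17.1 CPM with hP against 7.82, 3.60 and 10.3 CPM in untreated cultures (1.05 ± 0.30, adjusted p = 0.0654). Of 22 NF-kB and chemokine genes none was called by edgeR, with 3 at an unadjusted p under 0.05 and 1 called by DESeq2. Steap4 (0.52 ± 0.12) was the member raised among 26 acute phase genes.

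The hP vector was compared with the mean of the other GKRP vectors (hL, mP and mL) at endogenous GK, which needs no untreated culture. Of 12177 genes 1 was raised (0.00821%) and 1 lowered (0.00821%), with 211 and 213 at an unadjusted p under 0.05 and 8 and 17 called by DESeq2. The lowered gene was Gckr (-5.15), which the mouse vectors carry. The raised gene, Mup10, belongs to a family of near-identical major urinary protein genes and was 1.397, 4580 and 3675 CPM with hP in mice 1, 2 and 3, so its level is uncertain. The median log2 difference of the 159 replication genes was -0.05. For Mcm5 the difference was -0.08 (95% interval -0.34 to 0.18), for Ccne2 -0.14 (-0.60 to 0.32), for Chek1 -0.15 (-0.64 to 0.34) and for Uhrf1 -0.02 (-0.51 to 0.47). The widest of these intervals reached -0.64, for Chek1, whose rise over untreated cultures was 3.42.

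The comparisons of each vector with untreated cultures share those cultures, so their values are only set side by side. The median log2 fold change of the 159 replication genes in this view stood at 0.58 for the hP vector, 0.65 for hL, 0.68 for mP and 0.59 for mL. With the GK vector alone it was 0.04. Chek1 had log2 fold changes of 3.42, 3.57, 3.70 and 3.43 with the 4 GKRP vectors and 1.08 with GK (adjusted p = 0.477). Mcm5 had 2.53, 2.46, 2.74 and 2.62 with the GKRP vectors and 0.23 with GK. Mcm3 had 2.05, 1.94, 2.14 and 2.04 with the GKRP vectors and 0.45 with GK (adjusted p = 0.0211), so it was called with GK too. The GK alone samples include the culture of mouse 3 with high Gckr. The ChREBP targets had medians of -0.41, -0.36, -0.36 and -0.32 with hP, hL, mP and mL and 1.00 with GK, where members picked by the study for induction by GK set part of that median.

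The hP cultures were also set against the cultures with GK alone, which had received an adenovirus but more GK, a comparison added after the data were seen. There 292 genes were raised (2.4%) and 179 lowered (1.47%), or 204, 131 and 70 raised and 138, 105 and 52 lowered without mouse 1, 2 or 3. Without the GK alone culture of mouse 3 with high Gckr, 294 were raised and 192 lowered. Of the 159 replication genes 68 were raised and 1 was lowered, with a median of 0.54. Mcm5 had a log2 fold change of 2.30, Ccne2 2.27, Chek1 2.34 and Uhrf1 2.93, and each was called. Chac1 (0.42, adjusted p = 0.608) and Cdkn1a (0.07, adjusted p = 0.845) did not pass. For GK alone against untreated, Chac1 had 1.38 (95% interval 0.68 to 2.09) and Cdkn1a 0.34 (0.14 to 0.53), neither called. Of the ChREBP targets 21 were lowered, with a median of -1.38, and this too follows in part from how the list was chosen. This control differs from hP in the GK level as well as in GKRP, and the dose of the 2 vectors need not be the same, so these cannot be told apart.

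**Figure D4:**
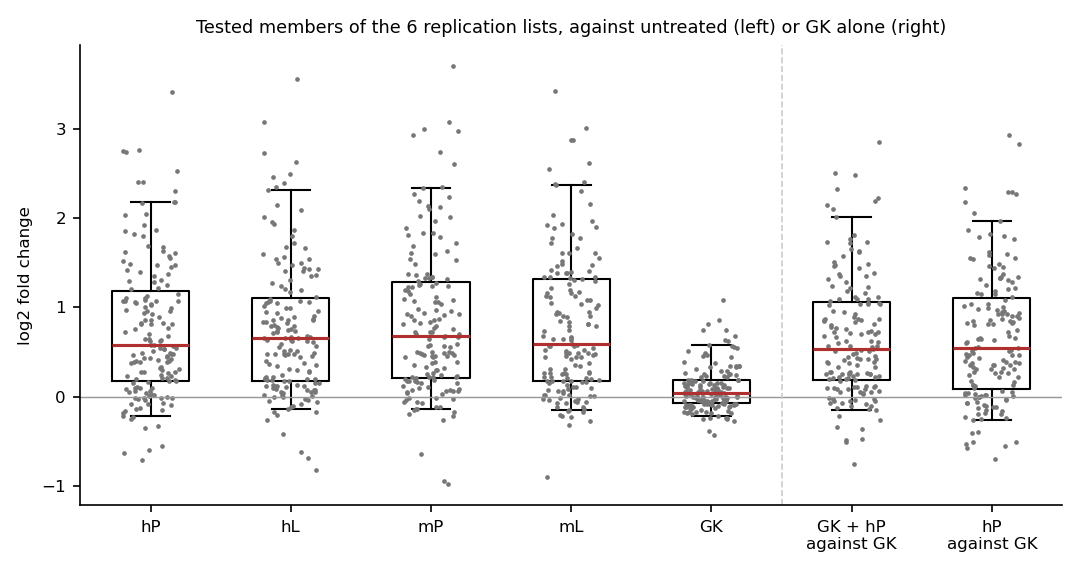
Log2 fold changes of the 159 tested replication genes for each vector against untreated cultures (left of the dashed line) and for hP with GK or hP against GK alone (right), with boxes for the quartiles, whiskers from the 5th to the 95th percentile and a point for each gene. The medians are 0.58, 0.65, 0.68 and 0.59 with the GKRP vectors, 0.04 with GK, and 0.53 and 0.54 against GK alone.

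The same vector given together with the GK vector was compared with GK alone, in other cultures of the same mice. It called 243 genes raised (2%) and 155 lowered (1.27%). Of the genes raised by hP at endogenous GK 154 were raised here too, 64.7% of those 238 and 63.4% of these 243, and 235 of the 238 had the same sign. Of the lowered genes 36 were shared, 59.0% of the 61 and 23.2% of the 155. These comparisons share no library, although they share mice. Mcm5 rose by 2.33 ± 0.16, Ccne2 by 2.23 ± 0.29, Chek1 by 2.49 ± 0.31 and Uhrf1 by 2.86 ± 0.32. In the replication lists 67 genes were raised, with a median of 0.53. For Chac1 (0.52, adjusted p = 0.494), Cdkn1a (0.08), Mdm2 (0.21) and Dgat2 (0.10) the rise was not called in the presence of GK. Against untreated cultures, GK alone had log2 fold changes of 1.38 for Chac1, 0.34 for Cdkn1a, 0.04 for Mdm2 and 0.25 for Dgat2, none called. The test of the difference between the 2 hP effects, given below, called none of these genes. A GK alone culture of mouse 3 had 1462 CPM of Gckr where the other 5 had 51.8 to 98.0 CPM. Without it 257 genes were raised and 172 lowered. Without mouse 1, 2 or 3 the counts were 166, 115 and 65 raised and 130, 85 and 33 lowered.

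In the presence of GK 20 of the 28 ChREBP targets were lowered, with a median log2 fold change of -1.15, beside -0.41 at endogenous GK. Several members were picked by the study on these libraries for a rise with GK and a fall with GKRP, so the choice of the list bears on its fall against GK alone and that fall is given as a description. Rgs16 fell by 3.19 ± 0.39, Txnip by 2.79 ± 0.30, Slc2a2 by 2.19 ± 0.27 and Pklr by 1.58 ± 0.15. Angptl8, a hepatic regulator of lipoprotein lipase, fell by 2.51 ± 0.39, after -1.08 ± 0.41 (adjusted p = 0.21) at endogenous GK. G6pc1, the glucose-6-phosphatase, fell by 2.75 ± 0.49 after -0.79 ± 0.53. The difference between the hP effects at the 2 GK levels was tested as an interaction, in which 0 genes were raised (0%; 305 at an unadjusted p under 0.05, and 13 by DESeq2) and 1 was lowered (0.00821%), the pseudogene Ftl2-ps. The median difference of the 28 targets was 0.80. For Txnip it was 1.35 (95% interval 0.49 to 2.20, adjusted p = 0.772) and for Pklr 0.81 (0.38 to 1.23, adjusted p = 0.546). For the replication genes the median difference was 0.06, with Mcm5 at 0.20 (-0.28 to 0.67) and Mcm3 at 0.47 (0.21 to 0.74, adjusted p = 0.596).

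**Figure D5:**
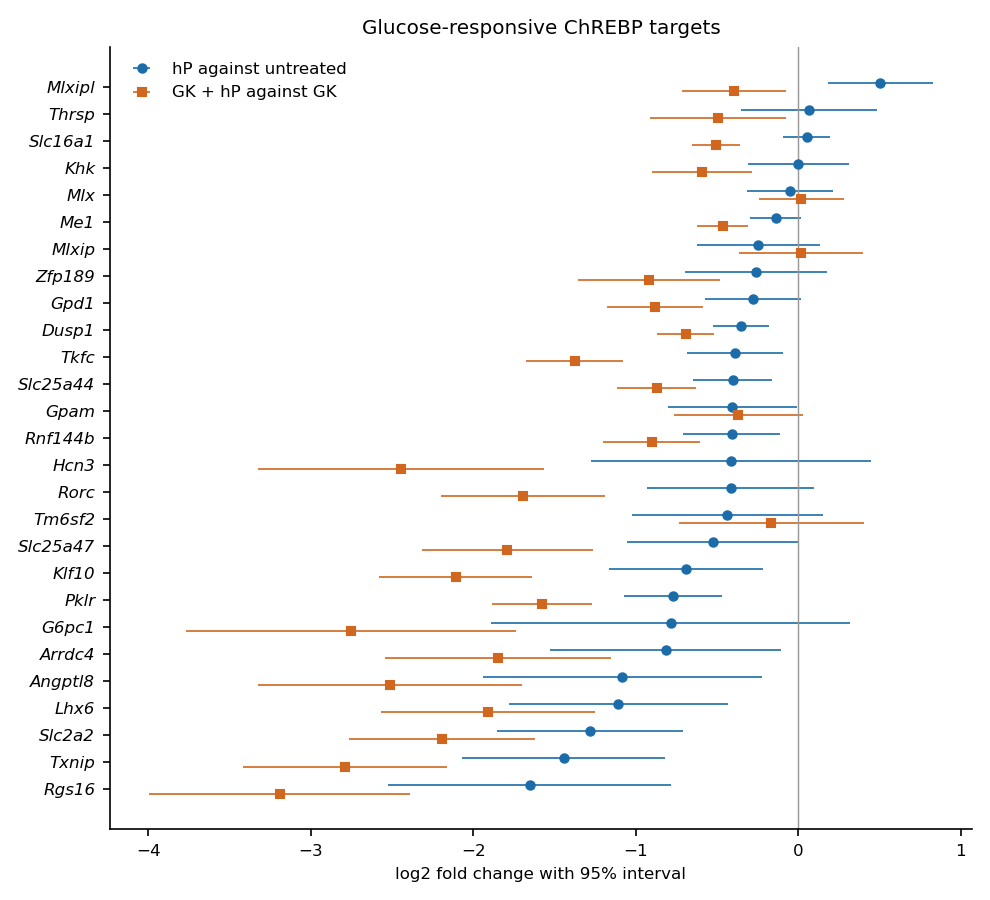
Log2 fold change with its 95% interval for 27 of the 28 tested ChREBP targets and partners, for hP against untreated at endogenous GK (circles) and for hP with GK against GK alone (squares). The squares lie left of the circles for most genes, with medians of -1.15 and -0.41 over all 28.

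The size of the response differed between mice. For the raised genes the median log2 ratio of hP to untreated was 0.90 in mouse 1, 0.65 in mouse 2 and 0.88 in mouse 3, and for the lowered genes it was -0.86, -0.51 and -0.71. Mouse 2 thus had the smallest change in both directions. All but 1 of the raised and all but 1 of the lowered genes had the same sign in 3 of 3 mice. This follows largely from calling them in a fit to the same mice and is not separate support. Counts of the 2 untreated cultures of a mouse were compared with a chi-square test, whose statistic was 13.7 to 29.0 times its degrees of freedom. They thus differed beyond sampling noise and were not the same library deposited again, and their counts were summed to 1 sample per mouse for the test. Among single values, Ccne1 and Uhrf1 in mouse 2 (8.10 and 12.2 CPM with hP) were below those of the other mice, yet stood above every untreated culture (at most 3.55 and 7.27 CPM).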

How the data were processed

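RNA of primary mouse hepatocyte cultures was sequenced, and the deposited files hold, per transcript, the expected counts and TPM that the authors estimated with Salmon 1.4.0 against Gencode mouse transcripts on GRCm39, with FastQC for read quality. The library kit and strand setting are not given in the sources used here, so reads of a gene and an overlapping antisense gene may not be told apart, and expected counts of near-identical genes depend on how Salmon split shared reads. Of 139225 transcripts 137570 were matched to 52230 genes, and the unmatched transcripts held at most 0.639% of reads. Expected counts were summed to genes, the 2 untreated (and the 2 GK) cultures of a mouse were summed and the sums rounded to whole numbers. TPM were used only for marker sums.

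The test was edgeR's quasi-likelihood test (edgeR 4.0.16, R 4.3.3) over 30 samples (10 conditions in each of 3 mice), with condition and mouse as terms, filterByExpr by condition, TMM factors of 0.901 to 1.09 and Benjamini-Hochberg adjustment over 12177 genes. A gene was called with an adjusted p under 0.05 and a fold of at least 1.3 or at most 0.7. A p then rests on the residual spread over 3 mice, pooled over all 10 conditions, and not on the hP and untreated pairs alone. Samples were paired because the labels give the same animal. Deviations from the condition means of hP and untreated samples of a mouse correlated at 0.40, 0.27 and 0.018. The mean over same-mouse samples was 0.22. The mean between mice was -0.11, which follows largely from centring each condition over its mice and adds no support for pairing. The fit without this block and the other alternatives are given in the closing section. DESeq2 1.42.0 was an alternative. On data simulated for hP against untreated (12059 genes), detection was an adjusted p under 0.05 in the right direction, with no fold threshold. It was met by 21 of 67 genes changed by 1.5-fold, 39 of 67 changed by 2-fold and 58 of 66 changed by 4-fold. A further 3 unchanged genes passed the same adjusted p. The simulation used the spread of the fit itself and held no differences in transcript length between cultures.

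The comparison, the gene lists and the promoter motifs were chosen with earlier results of these data known. Named genes were the 15 largest rises and 15 largest falls among called genes with the same sign in 3 of 3 mice and at least 1 CPM in the higher group, up to 4 called members of each list, up to 6 in each direction of the other comparisons, and a fixed set that includes Gckr, Chek1, Ccne2, Cdkn1a, Mup18, Alb and Hnf4a. Some of the items this rule selects are not reported here. Other list members and the genes outside the lists given as examples were chosen after their values were seen. The smallest two-sided exact permutation p of 3 pairs is 0.25, so no single value was tested outside the model.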

Additional observations from a re-analysis of the deposited data

Results flagged for a closer look

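In the 6 untreated cultures, 5 of the 71 named genes had a culture far from the others, by the gap to the nearest value relative to the whole range, and chance alone gives such a gap in about 1 in 20 groups. Ftl2-ps was 929.2 CPM in untreated culture 2 and 0 to 286.2 CPM in the others. Mup10, a major urinary protein gene with near-identical relatives, was 64.42 CPM in untreated culture 6 and 2.276 to 7.724 CPM in the others. Timeless, a fork protection gene, was 0.3523 CPM in untreated culture 5 and 1.938 to 2.782 CPM in the others. Pfkfb3 was 56.52 CPM in untreated culture 1, still above the hP culture of the same mouse at 33.4 CPM, and 82.27 to 97.06 CPM in the others. Ddit3, the stress factor CHOP, was 7.621 CPM in untreated culture 3 and 4.047 to 5.329 CPM in the others. These 5 values come from 5 different cultures, so no single untreated culture stood apart in this way. The effect of hP on Ftl2-ps differed between endogenous and raised GK by -24.18 on the log2 scale in the interaction test, a fitted value that follows from reads at or near 0 in several cultures.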

How the results depend on the processing

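For hP against untreated, 238 genes were raised and 61 lowered. The fit without the replicate block, that is without pairing by mouse, called 86 and 9, and DESeq2 without the mouse 126 raised. DESeq2 with the mouse called 122 lowered, the 15 samples at endogenous GK alone 105 lowered, and the 6 untreated and hP samples alone 43 and 27. No fold threshold gave 105 lowered and a fold of at least 2 gave 96 and 13. Leaving out each mouse gave 56 to 139 raised and 8 to 40 lowered, lowest without mouse 3. Without untreated cultures 2 and 3, an alternative chosen after seeing the data, 238 and 61 were called. An offset for estimated transcript length gave 16 and 0. Effective gene lengths estimated by Salmon varied between cultures by a median SD of 0.684 (log2). Untreated cultures 2 and 3 had the lowest medians of the untreated and hP cultures (710 and 521 bases). The biological coefficient of variation was 0.469 with the offset and 0.231 without.

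For hP against the other GKRP vectors (1 and 1), DESeq2 called 8 and 17, the length offset 0 raised, the 15 samples 0 raised, and leaving out each mouse 0 to 0 raised and 0 to 1 lowered. For hP with GK against GK alone (243 and 155), no replicate block gave 77 and 30, the length offset 11 and 8, and leaving out each mouse 65 to 166 and 33 to 130. For the interaction (0 and 1), DESeq2 gave 13 and 22, no replicate block 0 lowered, the length offset 0 lowered, at least 1 CPM in every sample of a condition 3 raised, and leaving out each mouse 0 to 1 raised and 0 to 0 lowered. For hP against GK alone (292 and 179), no replicate block gave 84 and 36, the length offset 14 and 17, and leaving out each mouse 70 to 204 and 52 to 138. The causes were not tested.

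Of the 60 named genes called, 26 kept their call without the replicate block, 42, 39 and 24 without mouse 1, 2 and 3, and 10 with the length offset. Ccne1, Chaf1b, Chek1, Mcm4 and Mcm5 kept it under all 16 alternatives. With the length offset the log2 fold change turned sign for Zfp688 (0.076), Herpud1 (-0.062) and the uncalled Alb (0.17), and with the first untreated cultures for Hnf4a (0.032) or the second for Gm38431 (0.17). Leaving out each mouse, it ranged from -0.051 to 0.61 for Gckr, from -0.12 to 0.031 for Hnf4a and from -0.66 to 0.0048 for Hcn3, none of them called.

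Genes below about 10 reads per culture, most histone and mitotic genes among them, could not be tested.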

Other observations

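For hP against untreated, the major urinary protein genes Mup10 and Mup18 were far higher in hP cultures of mouse 2 and mouse 3 than in that of mouse 1. Mup18 was 219, 2029 and 1685 CPM with hP in mice 1, 2 and 3 and 132, 122 and 66.6 CPM in untreated cultures (log2 fold change 3.18 ± 1.21, adjusted p = 0.209 by edgeR). Single untreated cultures did not exceed 215 CPM of Mup18, so every hP culture stood above them, by little in mouse 1. Mean Mup18 was 235, 381, 366 and 383 CPM with hL, mP, mL and GK alone, beside 107 CPM untreated and 1311 CPM with hP. Mup10 was 1.397, 4580 and 3675 CPM with hP and 3.86, 7.12 and 39.1 CPM without (adjusted p = 0.0666 by edgeR). The 18 tested genes of this family had a median log2 fold change of -0.26, and their sequences are near-identical, so reads may be split between them. The part of that splitting in these values was not tested.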
